A study of Rattus norvegicus with 12 samples.

Results

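The autophagy and lysosome genes described here are 45 genes chosen by name: 18 autophagy factors, 6 lysosomal membrane proteins, 3 subunits of the lysosomal proton pump, 10 lysosomal proteases, 4 glycosidases with the lipase Lipa, and 3 soluble lysosomal proteins without a catalytic role of their own. They were measured in the livers of adult male Wistar rats after 4 weeks on a control diet with 14% casein (6 rats) or on a low protein diet of equal energy with 5% casein (6 rats), with 1 rat on each single-colour array. The labels name no other treatment and give no age beyond adult. The series set out to find metabolites and enzymes that respond to a lack of dietary protein, and these genes are the cell's machinery for breaking down its own protein. A gene was found through the RefSeq accession of its probes, which gave 54 probes for 44 of the 45 genes. Atg4b, a protease that trims LC3, had no probe by this rule and is not analysed here. All 44 were well above background on all 12 arrays, among 21858 genes tested.

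In autophagy, a starting kinase complex (Ulk1, Atg13) and a lipid kinase complex (Becn1, Atg14) mark a membrane on which Atg9a vesicles and the Wipi proteins gather. Atg7 activates Atg12, which is joined to Atg5. This conjugate with Atg16l1 helps Atg3 to couple LC3 (Map1lc3b) and its relative Gabarapl1 to lipid, and receptors such as Sqstm1 and Bnip3 bring in the cargo. The closed vesicle fuses with a lysosome, where a proton pump keeps the lumen acid and cathepsins and other hydrolases cleave the contents, and TFEB is a transcription factor that switches on many of these genes. Liver autophagy is known to rise in starvation, when it returns amino acids to the blood.

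TFEB and its relatives bind the palindrome TCACGTGA, the core of the so-called CLEAR element, and the members whose promoters hold it are shown first because it is the sequence feature this factor is known for. Of the 45 members, 39 have a promoter in the RefSeq table of the GRCr8 assembly (250 bases before to 50 bases after the gene start). The palindrome reads the same on both strands. It lay in 5 of the 39 (12.8%), against 8.28% of the promoters of 145 further autophagy and lysosome genes and 0.777% of 33469 promoters of the same length. The shorter letters CACGTG, which it contains, lay in 11 of 39 (28.2%), against 13.8% of the further pathway genes and 6.42% of all. The full element of 10 bases, with a G before the palindrome and a C after it, lay in 0 of 39 member promoters, against 7 of 145 (4.83%) and 0.233% of all. A match is a description of letters and not evidence of binding. The first site in each of the 5 promoters follows with 16 bases on each side, 5′ to 3′ in the direction of the gene, with the palindrome in capitals. Lamp1 holds 2 copies, of which the second is not printed.
Ctsd, chr1:206968809-206968848, minus strand: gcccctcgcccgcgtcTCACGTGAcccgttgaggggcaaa
Atg3, chr11:69159274-69159313, minus strand: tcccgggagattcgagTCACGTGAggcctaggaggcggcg
Mcoln1, chr12:6358245-6358284, plus strand: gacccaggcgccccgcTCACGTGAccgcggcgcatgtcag
Lamp1, chr16:83075106-83075145, minus strand: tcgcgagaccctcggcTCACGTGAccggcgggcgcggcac
Atp6v0d1, chr19:50357278-50357317, minus strand: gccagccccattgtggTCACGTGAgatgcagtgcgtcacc
The site of Mcoln1 begins just after the gene start, and the first site in the other 4 begins 11 to 66 bases before it. None of these 5 genes passed limma's test between the diets at an adjusted p under 0.05, and their log2 differences (low protein minus control) ran from -0.18 for Atg3 to 0.03 for Mcoln1. Atg3 alone of the 5 had an unadjusted p under 0.05.

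Transcripts of the autophagy and lysosome genes were close to the control level after 4 weeks of low protein feeding. No member rose. Npc2 (1.33-fold lower), Grn (1.24-fold lower) and Atg12 (1.21-fold lower) fell, at an adjusted p under 0.05 by limma over all 21858 genes (n = 6 rats per diet). Npc2 binds cholesterol inside lysosomes and hands it to Npc1, Grn encodes progranulin, which is cleaved to granulins in lysosomes, and Atg12 is the ubiquitin-like partner of Atg5. Thus 3 of 44 members (6.82%) were called, beside 6.53% of all genes. All 3 were lower (6.82%, beside 3.05% of all genes), and 0 of 44 were higher (beside 3.48%). The median log2 difference of the members was -0.01, and that of all genes was -0.03. Values are log2 signals relative to the 75th percentile of the array, so that 0 is the signal of that percentile, and differences are on the same scale.

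The differences were small, but about as large as over all genes. The median absolute log2 difference was 0.13 over the members and 0.14 over all genes. The 95% interval of every tested member lay between -1 and 1, that is, short of a 2-fold change either way, which held for 19974 of all genes. For 36 of the 44 members (81.8%) it lay between -0.5 and 0.5, beside 59.7% of all genes. These intervals are not adjusted for the number of genes. The median SD among control rats was 0.15 over the members and 0.20 over all genes. The median SE of the difference was 0.099 over the members and 0.126 over all genes, so the members had narrower intervals. In 12 of 44 members the unadjusted p was under 0.05 (27.3%, beside 21.6% of all genes). At this level 11 of the 44 were lower, a larger share than the 2471 of 21858 genes (11.3%). Only 1 of the 44 was higher, a smaller share than the 2249 of 21858 genes (10.3%). The members and all genes were not compared by a test.

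**Figure D1:**
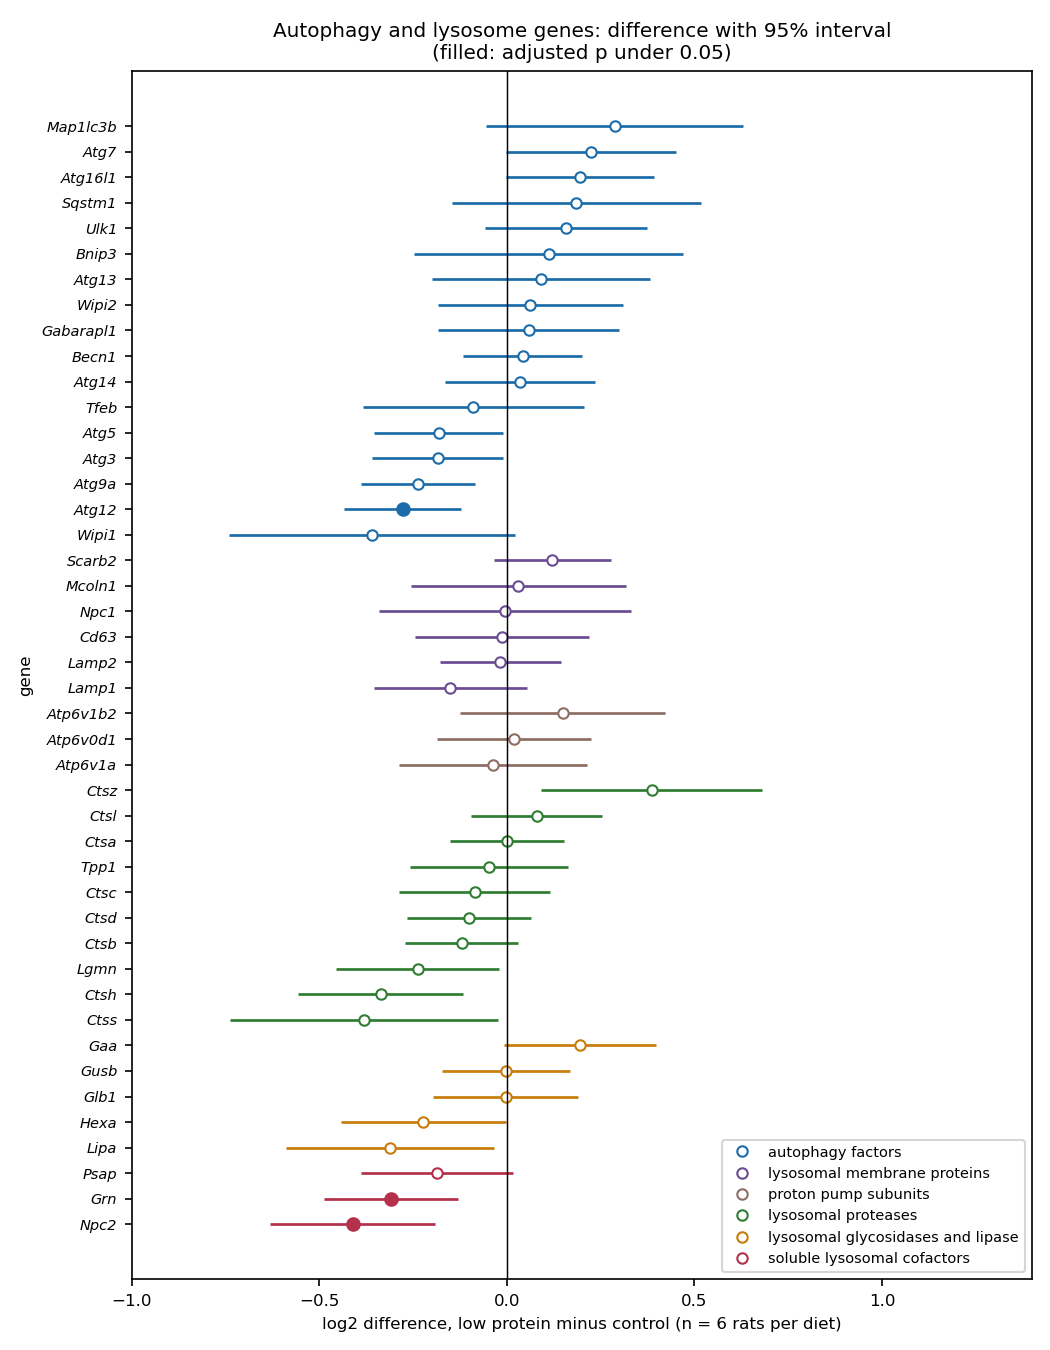
Log2 difference between the diets (x axis, low protein minus control) for the 44 measured members (y axis, by class), each with its 95% interval; filled points passed at an adjusted p under 0.05. The 3 filled points, Npc2, Grn and Atg12, lie between -0.41 and -0.28, and no interval reaches -1 or 1.

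The promoters of the 3 genes that fell are printed to set them beside the sites above. None holds CACGTG in the window of the table, which says only that these letters are not there. They are the GRCr8 sequences of RefSeq, 5′ to 3′ in the direction of the gene, 250 bases up to the gene start in lower case and the first 10 bases of the gene in capitals.
Npc2, chr6:110149236-110149495, minus strand: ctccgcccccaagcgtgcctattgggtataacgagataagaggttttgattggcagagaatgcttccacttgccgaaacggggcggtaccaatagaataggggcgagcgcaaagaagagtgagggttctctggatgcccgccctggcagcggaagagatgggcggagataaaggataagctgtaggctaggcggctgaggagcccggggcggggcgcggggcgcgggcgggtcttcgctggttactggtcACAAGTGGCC
Grn, chr10:87887584-87887843, plus strand: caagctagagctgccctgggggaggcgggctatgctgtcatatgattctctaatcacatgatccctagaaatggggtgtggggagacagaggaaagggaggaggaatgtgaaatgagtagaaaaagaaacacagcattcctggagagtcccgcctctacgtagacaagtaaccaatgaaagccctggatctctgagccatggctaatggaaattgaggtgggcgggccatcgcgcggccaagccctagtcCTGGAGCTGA
Atg12, chr18:41649009-41649268, minus strand: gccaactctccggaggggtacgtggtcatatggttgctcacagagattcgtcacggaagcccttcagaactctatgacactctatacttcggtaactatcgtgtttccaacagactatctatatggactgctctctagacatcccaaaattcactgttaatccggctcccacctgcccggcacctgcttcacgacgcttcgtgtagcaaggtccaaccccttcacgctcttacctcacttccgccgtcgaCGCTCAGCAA

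Among the soluble proteins without a catalytic role, Npc2 had signals of 0.73 (lowest), 0.83 (median) and 1.08 (highest) in control rats. In low protein rats they were 0.24, 0.40 and 0.73. Every low protein rat lay below every control rat, with low protein rat 1 only just below control rat 4. The difference was -0.41 ± 0.10 (SE, n = 6 rats per diet, limma adjusted p = 0.0315). The arrays lay on 2 slides, and it was -0.40 within slide 1 and -0.44 within slide 2. Grn had 1.29, 1.58 and 1.75 in control rats and 1.13, 1.24 and 1.33 in low protein rats. The diets overlapped only through control rat 6, the lowest control, which low protein rat 3 exceeded. The difference was -0.31 ± 0.08 (limma adjusted p = 0.0441). It was -0.25 within slide 1 and -0.42 within slide 2, and the limma adjusted p was 0.0517 with slide as a block. Psap, the precursor of the saposins that help enzymes reach lipids, was at -0.19 (limma adjusted p = 0.275).

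These calls lay near the threshold, and most omissions of 1 rat lost them (7 of 12 for Npc2, 11 of 12 for Grn). Leaving out a rat also lowered the calls over all genes, from 1428 to between 856 and 1307. Npc2 passed when control rat 2, 4 or 6 or low protein rat 1 or 3 was left out, and missed the threshold without any other rat (limma adjusted p = 0.056 to 0.0748). Grn passed only without control rat 6 and missed without any other rat (limma adjusted p = 0.0503 to 0.104). Across these fits the difference of Npc2 stayed between -0.47 and -0.37 and that of Grn between -0.36 and -0.27. Without scaling between arrays, where the median of all genes moved from -0.03 to 0.11, Npc2 was at -0.28 and Grn at -0.18, and neither passed. In the deposited raw values they were at -0.24 and -0.16, without a call.

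Among autophagy factors, 1 of 17 measured genes was called lower and none was called higher. Atg12 had signals of -2.94, -2.80 and -2.65 (lowest, median and highest) in control rats and -3.20, -3.08 and -2.93 in low protein rats. The diets overlapped through low protein rat 2, which lay above control rat 1. The difference was -0.28 ± 0.07 (limma adjusted p = 0.0377). Within slide 1 it was -0.24 and within slide 2 it was -0.36. Atg12 passed without control rat 1 or low protein rat 2 or 3 and missed without any other rat (limma adjusted p = 0.0558 to 0.0914), where the difference ran from -0.31 to -0.25 over all 12 omissions. It missed after normexp background correction (-0.22, limma adjusted p = 0.0625), without scaling (-0.15) and in the deposited raw values (-0.11).

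The other autophagy factors did not share 1 direction. Atg9a, the membrane protein of the vesicles that seed the autophagosome, did not overlap between the diets (2.06, 2.10 and 2.18 in control rats, 1.65, 1.90 and 2.04 in low protein rats), a pattern seen in 2 of 44 members, Atg9a and Npc2, and in 4.99% of all genes. Its difference was -0.24 ± 0.07 (limma adjusted p = 0.0657), and its other probe gave -0.22. It passed after quantile normalization (limma adjusted p = 0.0451), with a trended robust spread (0.0335) and without low protein rat 3 (0.0441). Atg3, the enzyme that hands LC3 to its lipid, was at -0.18 (limma adjusted p = 0.203), and Atg5, the partner of Atg12, was at -0.18 (0.204). Atg16l1 and Atg7, which act with them, were at 0.19 and 0.22 (limma adjusted p = 0.239 for both). The 2 probes of Atg7, which carry different RefSeq accessions, gave 0.22 and -0.21, so its direction was not settled by the array.

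The cargo receptor Sqstm1 (p62) had signals of 3.84, 4.28 and 4.44 in control rats and 3.87, 4.46 and 4.78 in low protein rats, and the diets overlapped widely. Its difference was 0.19 ± 0.15 (limma adjusted p = 0.542), and its 3 probes gave 0.13 to 0.22. Map1lc3b (LC3B), the protein that coats the vesicle, had 3.69, 4.13 and 4.48 in control rats and 4.02, 4.45 and 4.65 in low protein rats. It was at 0.29 ± 0.16 (limma adjusted p = 0.324), and its 4 probes gave 0.15 to 0.29, all above 0. The intervals of these genes, -0.15 to 0.52 for Sqstm1 and -0.06 to 0.63 for Map1lc3b, leave a modest rise possible and a 2-fold rise outside. Ulk1, the starting kinase, was at 0.16 (limma adjusted p = 0.401). The mitochondrial receptor Bnip3 was at 0.11 ± 0.17, and it varied among low protein rats (SD 0.42) more than among control rats (SD 0.09), with low protein rat 6 at 2.96 and the other low protein rats at 1.75 to 2.33. Without that rat its difference was -0.04. Wipi1, which reads the lipid mark, was at -0.36 ± 0.18 (limma adjusted p = 0.263), with low protein rat 2 at -6.11 and control rats at -5.28 to -4.83. It was the dimmest member, and its difference was -0.14 after normexp background correction and -0.05 in the deposited raw values. Becn1, Atg13, Atg14, Wipi2, Gabarapl1 and Tfeb differed by less than 0.1 in either direction.

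**Figure D2:**
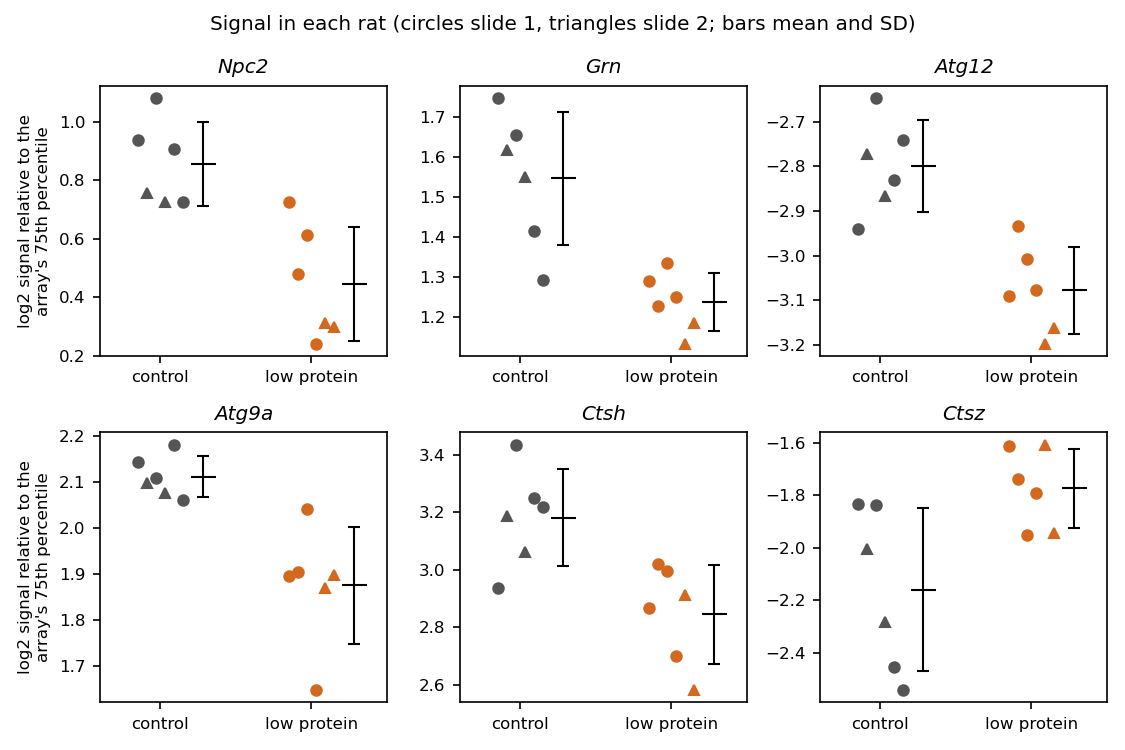
Log2 signal relative to the 75th percentile of the array (y axis) in each of 6 control and 6 low protein rats for 6 members (circles slide 1, triangles slide 2, bars mean and SD). Npc2 and Atg9a do not overlap between the diets, Grn and Atg12 overlap through 1 control rat each, and Ctsz is the member with the highest difference, 0.39, which missed the threshold.

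None of the 10 lysosomal proteases passed limma's test, and 4 had an unadjusted p under 0.05. Cathepsin H (Ctsh), an aminopeptidase, had 2.94, 3.20 and 3.44 in control rats and 2.58, 2.89 and 3.02 in low protein rats, with control rat 1 inside the low protein range. Its difference was -0.34 ± 0.10 (limma adjusted p = 0.0695), and it passed without control rat 1 (0.0475) and with a trended robust spread (0.0402). Cathepsin S (Ctss), a protease of antigen-presenting cells, was at -0.38 ± 0.16 (limma adjusted p = 0.198). Legumain (Lgmn), an asparaginyl endopeptidase, was at -0.24 ± 0.10 (0.187). Cathepsin Z (Ctsz), a carboxypeptidase, went the other way at 0.39 ± 0.14 (0.114), with -2.54, -2.14 and -1.83 in control rats and -1.95, -1.76 and -1.61 in low protein rats. The bulk proteases of the liver lysosome lay nearer 0, with cathepsin B (Ctsb) at -0.12 and cathepsin D (Ctsd) at -0.10, which both turned to small positive values without scaling. Ctsl, Ctsa, Ctsc and Tpp1 differed by less than 0.1. The median of the 10 was -0.09.

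Of the hydrolases that act on sugars and lipids none passed. Lipa, the acid lipase that frees cholesterol and fatty acids, had 2.28, 2.41 and 2.71 in control rats and 1.81, 2.12 and 2.41 in low protein rats, where rats 4 to 6 were the 3 lowest of all 12. Its difference was -0.31 ± 0.13 (limma adjusted p = 0.176). Within slide 1 it was -0.18 and within slide 2 it was -0.58. Hexa, a subunit of beta-hexosaminidase, was at -0.22 ± 0.10 (0.227). Gaa, which digests glycogen in lysosomes, was at 0.20 ± 0.09 (0.25), and it passed only in the deposited raw values (0.35, limma adjusted p = 0.0477). Glb1 and Gusb, the beta-galactosidase and beta-glucuronidase, differed by less than 0.1.

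The membrane proteins and proton pump subunits had no called gene. The 6 membrane proteins ran from -0.15 for Lamp1, a main glycoprotein of the lysosomal membrane, to 0.12 for Scarb2, the receptor that delivers glucocerebrosidase. Lamp2, Cd63, the calcium channel Mcoln1 and the cholesterol exporter Npc1 differed by less than 0.1. Npc1 passes on cholesterol that it receives from Npc2, and the diets differed by less than 0.01 in it, with an interval from -0.34 to 0.33. Of the pump subunits, Atp6v1b2 was at 0.15 (limma adjusted p = 0.555), and Atp6v1a and Atp6v0d1 differed by less than 0.1. None of these 9 genes had an unadjusted p under 0.05. By class, the median difference was 0.06 for autophagy factors, -0.01 for membrane proteins, 0.02 for pump subunits, -0.09 for proteases, -0.0033 for glycosidases and lipase, and -0.31 for the soluble proteins. Negative values were held by 6 of 17 autophagy factors and 20 of 27 lysosomal genes beside 55.1% of all genes. Of the 20, Ctsa, Gusb, Glb1 and Npc1 were at -0.0046 or nearer 0, and each changed sign under 9 alternatives. In the further lists below, they were held by 14 of 21 genes of initiation and conjugation, 8 of 12 of fusion and 10 of 17 receptors. Further regulators had 11 of 17, hydrolases 22 of 36, membrane and sorting genes 14 of 32 and pump subunits 7 of 14. Without scaling the median of all 44 members was 0.12, beside 0.11 for all genes. No difference between classes was tested.

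**Figure D3:**
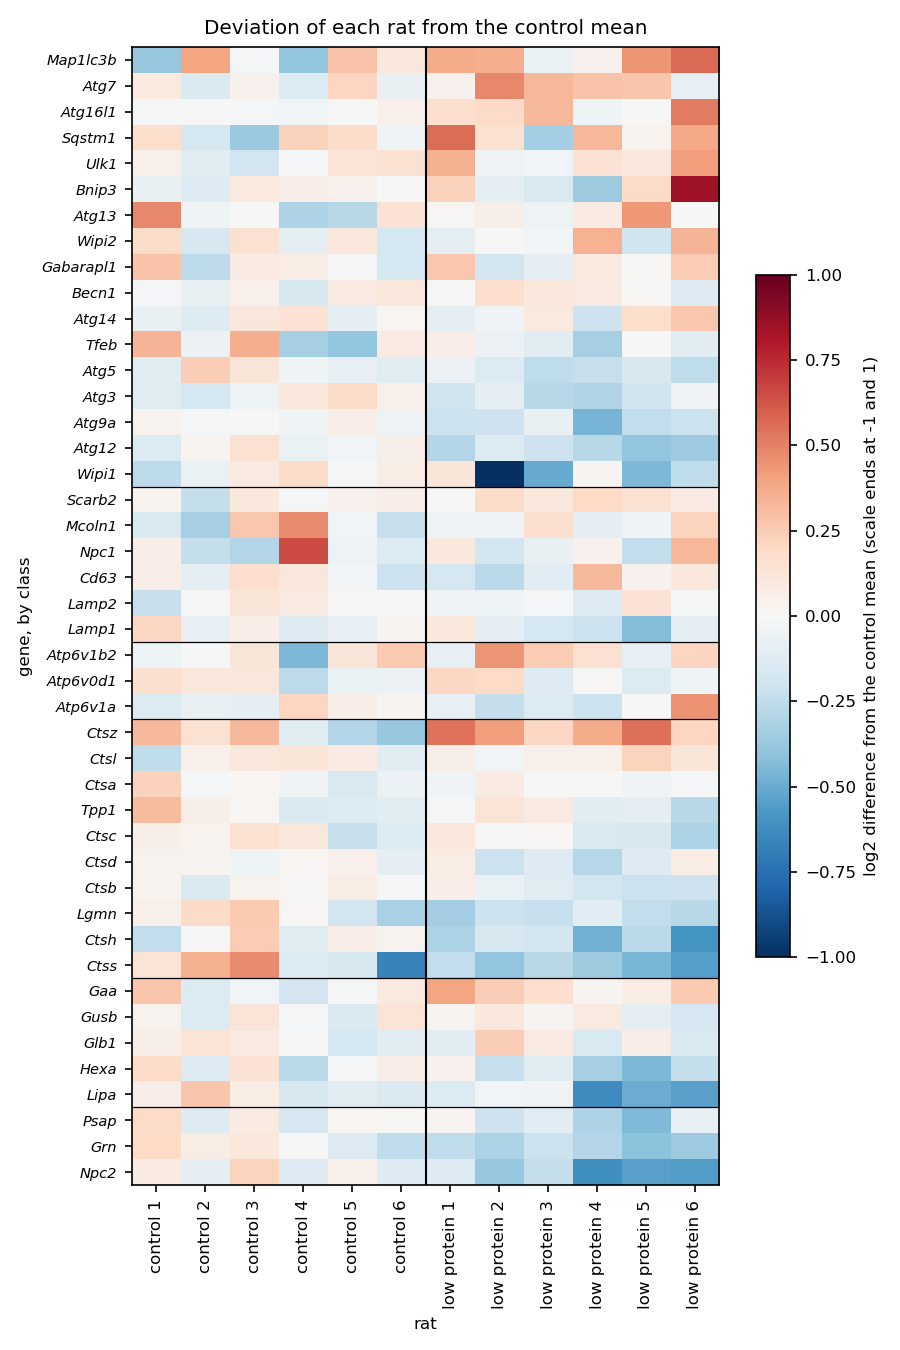
Deviation of each rat (columns) from the control mean of each member (rows, by class), on a log2 scale whose colours end at -1 and 1. The bottom rows, with Lipa, Grn and Npc2, are mostly below 0 in low protein rats, while many autophagy factors hold both signs in both diets, and low protein rat 6 stands out in Bnip3 and low protein rat 2 in Wipi1.

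Liver tissue holds macrophages (Kupffer cells), whose lysosomes are rich in some of these proteins, and in bulk tissue fewer cells of a type and less RNA per cell cannot be told apart. Of 16 macrophage markers 15 were measured, all 15 well above background on all arrays, and 14 were lower in low protein livers. Aif1 fell (-0.52 ± 0.13, limma adjusted p = 0.0317), 10 had an unadjusted p under 0.05, and the median difference was -0.37, with -0.26 on slide 1 and -0.60 on slide 2. The summed level of the markers, as multiples of the 75th percentile, was 41.4 to 68.4 in control rats and 39.7 to 48.1 in low protein rats. The control rats spread widely, with a mean log2 level of 0.78 in rat 2, 0.76 in rat 3 and 0.60 in rat 1, then 0.42 in rat 4, 0.22 in rat 5 and -0.09 in rat 6. The 4 measured monocyte and dendritic cell markers, of 8 listed, were all lower too (median -0.50) and none passed, with Cd74 at -0.88 (limma adjusted p = 0.0783) and Fcgr3a at -0.51 (0.0538). Their summed level was 1.76 to 5.10 in control rats and 1.49 to 2.88 in low protein rats. The 2 measured neutrophil markers, of 8 listed, were both higher and did not pass (median 0.35), with a summed level of 0.0848 to 0.192 in control rats and 0.150 to 0.190 in low protein rats. The 9 hepatocyte markers were well above background on every array, all were below 0 in the difference between the diets, and 2 fell, Apoa1 (-0.84) and Cps1 (-0.68). Of the measured markers of other cells, 2 of 6 endothelial (median 0.04) and 6 of 8 stellate cell and fibroblast markers (median -0.05) were below 0. So were 4 of 5 cholangiocyte (median -0.27) and 2 of 2 lymphocyte markers (median -0.21), and none of these 4 lists had a called gene.

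Some members followed this order of rats, and Lgmn and Npc2 did so only in part. In control rats Ctss was highest in rats 3 and 2 (1.89 and 1.78), then 1.56 in rat 1, 1.28 in rat 4 and 1.27 in rat 5, and lowest in rat 6 (0.75). Lgmn lay between 0.26 in rat 3 and -0.33 in rat 6, and Grn between 1.75 in rat 1 and 1.29 in rat 6. In low protein rats Ctss ran from 1.18 in rat 1, with the highest marker level, to 0.87 in rat 6, with the lowest. Lgmn did not keep the order there, with its lowest value in rat 1 (-0.35) and its highest in rat 4 (-0.11). Ctsz also had its lowest control values in rats 5 and 6, yet its low protein values were higher and not lower. Npc2 had its highest control value in rat 3 (1.08) and its lowest in rats 4 and 6 (both 0.73). Control rat 2, with the highest marker level, had only 0.76, and control rat 5, with the second lowest, had 0.91. Among low protein rats Npc2 was highest in rats 1 and 3 (0.73 and 0.61), which also had the highest marker levels (0.29 and 0.22). It was low in rats 4 to 6 (0.24 to 0.31), although the marker level of rat 4 (0.14) was above that of rat 2 (0.10). Atg12 was at -2.74 in control rat 6, the second highest control value, and among low protein rats it was lowest in rats 5 and 6, which had the lowest marker levels. Without control rat 6 Ctss was at -0.52 and passed (limma adjusted p = 0.0329). The part of macrophages and other immune cells in the differences of the members was not tested.

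**Figure D4:**
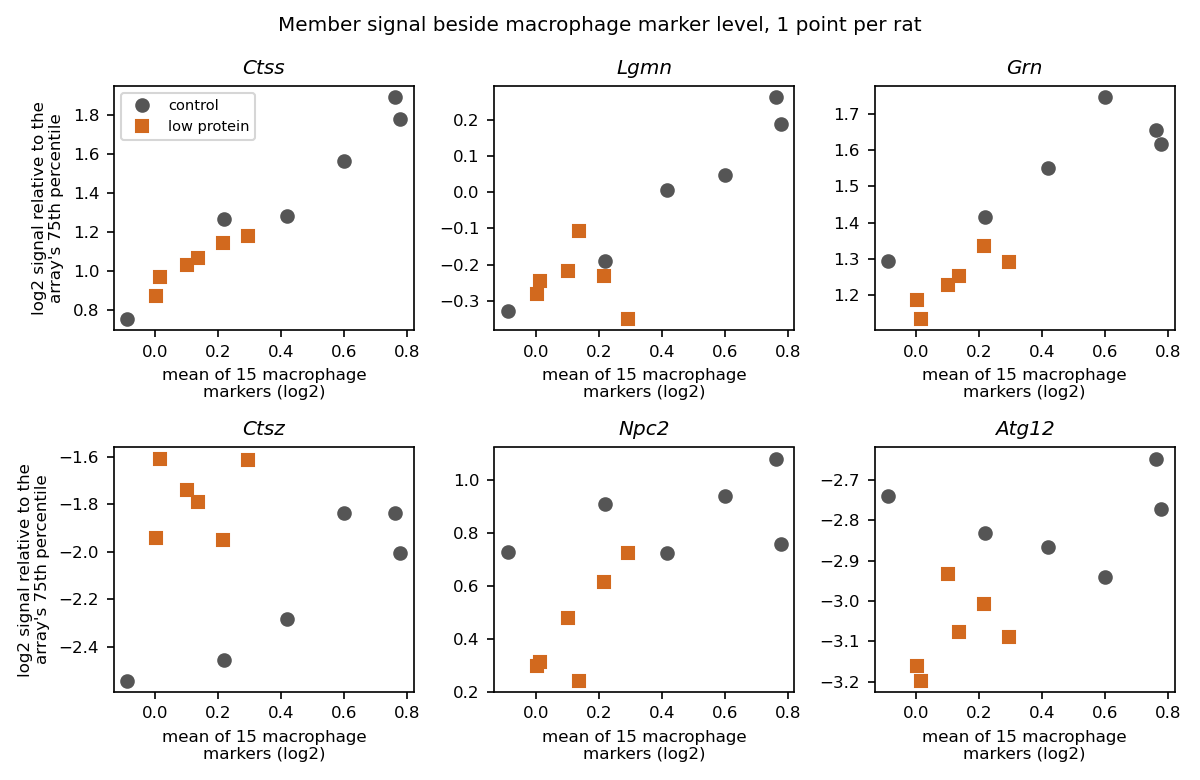
Log2 signal of 6 members (y axis) against the mean log2 level of 15 macrophage markers (x axis), both relative to the 75th percentile, with 1 point per rat (circles control, squares low protein). Low protein rats lie at marker levels of 0.00 to 0.29 and control rats at -0.09 to 0.78; Ctss and Grn lie higher where the markers are higher, and Ctsz is higher in low protein rats than in control rats of similar marker level.

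Of 168 further autophagy and lysosome genes in 7 lists, 149 were measured, and the median difference was -0.04. Of the 149, 4 rose and 4 fell (8 of 149, beside 1428 of 21858 genes, 6.53%). No gene was called among 21 genes of initiation and conjugation (4 at an unadjusted p under 0.05), 12 of vesicle fusion (2), 17 receptors of selective autophagy (1) and 14 further pump subunits (2). In the lists with a call, that unadjusted level was reached by 14 of 36 hydrolases, 5 of 17 regulators and 5 of 32 membrane and sorting genes. Over all 7 lists it was reached by 33 of 149, beside 21.6% of all genes. Among 17 regulators and their targets, Ddit4 (REDD1), a stress-induced inhibitor of mTORC1, rose 5.72-fold (2.52 ± 0.29, limma adjusted p = 0.000417). Tfe3, a relative of TFEB, rose (0.31 ± 0.07, limma adjusted p = 0.0179), while the mean of its probes gave 0.14 (0.292). Tp53inp2, a nuclear protein that takes part in autophagosome formation, fell (-0.40 ± 0.08, limma adjusted p = 0.0152), and the mean of its probes did not pass (-0.34, limma adjusted p = 0.12). Sesn3, a sestrin, fell (-0.61 ± 0.15, limma adjusted p = 0.0335), and passed only without control rat 3 or 6 or low protein rat 3 or 6. Sesn3 was dim (mean -5.46 in control and -6.07 in low protein rats), and well above background on 5 of 6 low protein arrays. In the deposited raw values it was at -0.18 and after normexp at -0.22, neither past the threshold. Without scaling Tfe3 (0.44) and Tp53inp2 (-0.27) kept their sign and missed the threshold.

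Of 36 further hydrolases, Arsa, a sulfatase of sulfatides, rose (0.41 ± 0.07, limma adjusted p = 0.00422), and Acp2 (-0.60 ± 0.10, 0.00402) and Acp5 (-0.42 ± 0.11, 0.039), acid phosphatases of the lysosome, fell. Acp5 is also known as a macrophage enzyme, and its call held only without control rat 6 or low protein rat 3. It also missed without scaling (-0.28, limma adjusted p = 0.279) and in the deposited raw values (-0.25, 0.309). Arsa and Acp2 passed with each rat left out in turn. Of 32 further membrane and sorting genes Igf2r, the receptor that sorts hydrolases to the lysosome by their mannose 6-phosphate, rose (0.30 ± 0.08, limma adjusted p = 0.039), and passed only without control rat 1 or low protein rat 2 or 5. Without scaling it was at 0.43 and missed the threshold (limma adjusted p = 0.0618). With any other rat left out the limma adjusted p was 0.0516 to 0.0923 for Acp5 and 0.0583 to 0.0932 for Igf2r.

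**Figure D5:**
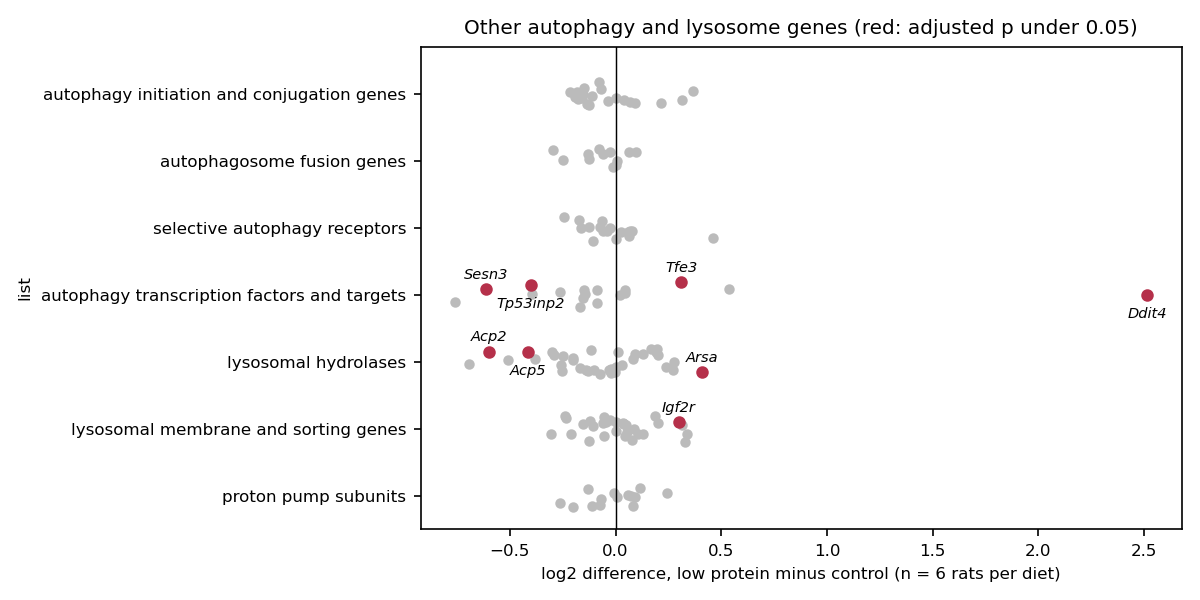
Log2 difference between the diets (x axis) for 149 further genes in 7 lists (y axis), 1 point per gene, spread vertically for visibility; named red points passed at an adjusted p under 0.05. Ddit4, at 2.52, lies far outside the range of all other genes shown, and the other 7 called genes lie between -0.61 and 0.41.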

How the data were processed

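Cyanine 3 labelled RNA from 12 livers, 6 per diet, was read on single-colour Agilent arrays. The authors extracted spots with Agilent Feature Extraction 12.0.3.1 (per the file headers), and the deposited intensity values are linear and not scaled between arrays. The deposited value table equals the median intensity at 100% of spots; its column medians were 51.5 to 65.5. The processed signals of Feature Extraction, not the deposited median intensities, were divided by the 75th percentile of each array (942 to 1317 units) and log2 transformed. Spots marked as outliers were left out, and spots of a probe were averaged. Of 45598 probes 21215 were matched to RefSeq symbols by accession; others were tested unnamed. A probe was kept where 5 or 6 of the 6 arrays of either diet had it well above background, and the brightest per gene was tested with limma 3.58.1 in R 4.3.3 (Benjamini-Hochberg over all genes). Slide 2 held control rats 2, 4 and low protein rats 5, 6, and slide 1 the others. Depth has no meaning here; the number of arrays limits the precision.

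On simulated data for low protein against control (21858 genes), the test found 59.7% of 67 changes of 1.5-fold and 65.7% of 67 of 2-fold. It found 98.5% of 66 changes of 4-fold, and 3.25% of its calls were false. Changes as small as those of the called members (1.21 to 1.33-fold) were not simulated, so the share of such changes found is not known. The members and the gene lists were chosen with earlier results of these data known. Members past the threshold, at an unadjusted p under 0.05 or differing by at least 0.1 were given with their values, others by range, and of each further list the called genes. The rule took at most 3 of them, so Sesn3, a 4th in its list, and members at 0.1 or more with a higher p were named after their values were seen. The labels number the samples within a diet, and p-values measure the spread between these samples.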

Additional observations from a re-analysis of the deposited data

Results flagged for a closer look

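A rat far from the other 5 of its diet was seen in 5 of 88 groups examined (44 members in each diet), and chance alone gives about 1 such group in 20. Lamp2 in control rat 1 was at 4.81, below the other control rats at 5.04 to 5.16. Scarb2 in control rat 2 was at -2.53, below the others at -2.31 to -2.18. Atg13 in low protein rat 5 was at -4.09, above the others at -4.57 to -4.44. Atp6v1a in low protein rat 6 was at 0.48, above the others at -0.20 to 0.04, and Ctsa in low protein rat 2 was at 4.38, above the others at 4.26 to 4.30. None of these 5 genes was called between the diets.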

How the results depend on the processing

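The falls of Npc2, Grn and Atg12 kept their direction under every alternative run, but their calls did not. The count of members lower was 0 without scaling, in the deposited values, without the filter on dim probes, on slide 1 or slide 2 alone and at an adjusted p under 0.01, and 5 with a trended robust spread and at an adjusted p under 0.10. It was 0 to 3 with each rat left out, and members higher were 0 to 0. Gaa made members higher 1 in the deposited values. The members' median was 0.12 both without scaling and in the deposited values, where that of all genes was 0.11 and 0.10, and -0.03 to 0.01 with each rat left out. All genes called were 892 without scaling (680 higher, 212 lower), 618 without the filter, 164 on slide 1, 12 on slide 2, 438 at 0.01, 2442 at 0.10, and 856 to 1307 with each rat left out; in the deposited values 1041 were higher and 242 lower, and in the reported fit 761 and 667.

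Further pathway genes higher and lower were 2 and 1 without scaling, without the filter and at 0.01, 1 and 0 on slide 1, 0 and 0 on slide 2, and 8 and 10 at 0.10. Those lower were 8 with the trended robust spread, 8 after normexp and 1 in the deposited values, and with each rat left out 3 to 5 were higher and 2 to 5 lower. Ctsb turned to 0.011 without scaling and 0.017 in the deposited values, and Ctsd to 0.030 in both. Bnip3 was at -0.11 on slide 1 alone and -0.036 without low protein rat 6, the lowest of -0.036 to 0.20 with each rat left out. Of the 18 members that differed by under 0.1, 16 changed sign under at least 1 alternative. The cause was not tested.

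With rat number as a replicate block, 1412 of all genes and 2 members passed, Npc2 and Grn, and Atg12 (limma adjusted p = 0.0618), Igf2r (0.0647) and Sesn3 (0.0939) missed. Deviations of rats of the same number correlated at 0.03 to 0.26, over 0.1 in 5 of 6 pairs, and 2 of 6 rats correlated best with their own number, so the numbers were not taken as pairs. On slide 1 or 2 alone few arrays remain. Mean signal is not in the files, and normexp used the median signal. The probes measure transcripts, not autophagic flux.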
